A study of Mus musculus with 14 samples.

Results

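The conjugation enzymes of drug and hormone clearance were followed in mouse liver as 46 genes, out of 18193 genes that had a single platform symbol. A gene was a member where its symbol began with Ugt1, Ugt2, Ugt3, Sult, Gsta, Gstm, Gstp, Gstt, Gstk, Gsto, Gstz or Mgst, and it was represented by its probe set with the highest mean signal. The 46 members had 59 probe sets. No member carried a Ugt1 symbol, because the probe sets of that locus name several genes, and 5 such probe sets from the families were left out. Of the members, 39 passed the filter on dim probe sets and were tested among 12085 genes, so a member bright in a single group could also pass. The other 7 (Gsto2, Gstt4, Mgst2, Sult1c1, Sult2b1, Sult4a1 and Sult6b1) had mean intensities of 3.65 to 17.5, under the filter threshold of 41.5.

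The liver was profiled on 14 Affymetrix arrays in 4 groups. The lsPERK tunicamycin group held 4 arrays of liver of the knock-out genotype taken 6 h after 1 mg/kg tunicamycin, and the lsPERK control group held 3 arrays of that genotype with 0.3% DMSO. The WT tunicamycin group held 4 arrays of wild-type liver under that same dose and time, and the WT control group held 3 arrays with the same DMSO vehicle. Collection time after DMSO is missing from the labels, as are age and sex, the Cre driver and the deleted part of the gene for lsPERK. Any statement that replicates are separate animals is missing too, so p-values measure the spread between these samples, which may be technical in part. It is not technical alone, because every group held arrays of high and of low signal of the RNA Xist, described further on. Tunicamycin blocks N-linked glycosylation and so stresses the endoplasmic reticulum. PERK, which the gene Eif2ak3 encodes, is the kinase of that organelle that phosphorylates eIF2, and lsPERK is known from the study as a liver-specific deletion of it.

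Conjugation, the second phase of detoxification, attaches a polar group to a drug, hormone, bile acid or reactive lipid so that it can be excreted. UDP-glycosyltransferases (Ugt) use UDP-sugars, sulfotransferases (Sult) use the activated sulfate PAPS, and glutathione S-transferases (Gst) and the membrane-bound Mgst enzymes use glutathione. Liver is a main site of all of these reactions, and in mice several of the enzymes are known to differ between males and females. Many Gst genes are known targets of the stress-response factor NRF2 through antioxidant response elements in their regulatory regions.

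Several members lie side by side in the genome. In the RefSeq gene table the mu-class genes follow each other on chromosome 3 in the order Gstm5, Gstm7, Gstm6, Gstm3, Gstm2, Gstm1 and Gstm4. All 8 Ugt2 members lie on chromosome 5 and are followed there by Sult1b1, Sult1d1 and Sult1e1. The theta-class genes Gstt3, Gstt1 and Gstt2 lie on chromosome 10. Near-identical copies within these clusters can share probes. The probe sets of Gstm3 and Ugt2b34 carry the platform's mark for several transcripts of a similar sequence, and those of Gstm1 and Sult6b1 carry its mark for possible cross-hybridization.

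Promoter sequence was available for 41 of the 46 members, as the 250 bases before 53 transcription starts (RefSeq, build GRCm38.p6). The lines below show the members whose results turn most on a comparison within a cluster, on the genotype or on Xist signal. Gstm5 and Gstm3, of the same mu-class cluster, moved in opposite directions in WT liver. Gstk1 had a different response in each genotype. Sult3a1 was high or near background according to the array's Xist signal. Capitals mark every match, on either strand, of the 7 motifs that were searched.
Gstm5, chr3:107895604-107895853, plus strand: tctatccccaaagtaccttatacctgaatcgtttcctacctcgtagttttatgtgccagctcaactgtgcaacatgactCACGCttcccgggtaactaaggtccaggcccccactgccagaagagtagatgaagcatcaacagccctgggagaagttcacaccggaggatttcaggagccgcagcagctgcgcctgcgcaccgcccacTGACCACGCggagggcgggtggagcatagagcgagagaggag
Gstm3, chr3:107969175-107969424, minus strand: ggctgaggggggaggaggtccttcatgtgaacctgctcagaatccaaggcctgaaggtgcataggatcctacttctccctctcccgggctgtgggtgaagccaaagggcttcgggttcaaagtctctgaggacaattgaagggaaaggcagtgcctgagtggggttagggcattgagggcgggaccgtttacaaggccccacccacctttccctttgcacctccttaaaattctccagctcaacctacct
Gstk1, chr6:42245685-42245934, plus strand: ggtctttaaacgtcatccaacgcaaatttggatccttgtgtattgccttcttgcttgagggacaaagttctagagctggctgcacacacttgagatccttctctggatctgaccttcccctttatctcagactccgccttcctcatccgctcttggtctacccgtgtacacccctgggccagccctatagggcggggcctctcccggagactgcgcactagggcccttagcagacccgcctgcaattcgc
Sult3a1, chr10:33857472-33857721, plus strand: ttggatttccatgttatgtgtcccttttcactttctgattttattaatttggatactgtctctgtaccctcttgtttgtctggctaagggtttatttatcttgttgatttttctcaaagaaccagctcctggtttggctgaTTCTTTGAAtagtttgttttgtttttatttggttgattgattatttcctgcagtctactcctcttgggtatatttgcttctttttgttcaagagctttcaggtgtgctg

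The core of the antioxidant response element, TGACNNNGC, occurred before 4 of the 53 member starts (7.55%), in Gsta3, Gstm5, Gstm7 and Mgst1, against 10.2% of the 32841 starts in the whole table. In Gstm5 it lay 42 to 34 bases before the start and overlapped a match of the core of the xenobiotic response element, GCGTG, on the other strand, 38 to 34 bases before it. That xenobiotic core occurred before 10 member starts (18.9%, against 28.2% of all starts). The STAT5 palindrome TTCNNNGAA, the binding motif of the factor through which growth hormone acts in liver, occurred before 2 member starts, of Gstm6 and Sult3a1 (3.77%, against 7.02%). The C/EBP-ATF composite element TGATGNAAN, bound by ATF4 downstream of PERK, occurred before 1 member start, that of Sult1e1 (1.89%, against 3.43%). The HNF1 site core GTTAAT occurred before 5 starts (9.43%, against 6.43%), the CCAAT box before 25 (47.2%, against 33.9%) and the TATA box TATAAA before 8 (15.1%, against 12.4%). The windows of Gstm3 and Gstk1 held none of these letters.

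Deposited array medians ran from 34.4 to 53.4, and the log2 intensities were quantile normalized. The levels below are normalized intensities, whose highest possible value was 25098, and levels of different probe sets are not compared. Eif2ak3 read 239 to 316 in lsPERK tunicamycin, 127 to 157 in lsPERK control, 1725 to 2420 in WT tunicamycin and 240 to 443 in WT control livers, so each lsPERK group lay below the WT group of the same treatment. Whether its probe set lies within the deleted part is not given in the sources used here. All 6 measured hepatocyte markers were above the filter threshold in every group, with summed levels of 110136 to 115113, 109021 to 117191, 112666 to 114930 and 114595 to 115379 in the same order of groups, and none passed the test in any comparison. These sums lie toward the top of the measured range, for 6 probe sets with a highest possible value of 25098 each. Whether a change was hidden there was not tested. For the β-actin control, the 3′ signal over the 5′ signal ran, on the log2 scale, from 0.59 to 0.78 in lsPERK tunicamycin, 0.58 to 1.04 in lsPERK control, 0.66 to 1.21 in WT tunicamycin and 1.00 to 1.26 in WT control livers.

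In WT liver, tunicamycin lowered 15 of the 39 tested members and raised 2. Every tested theta-class gene fell, and so did Gstk1, Gsta4, 3 of 7 mu-class genes, Mgst3, 3 of 9 sulfotransferases, 2 of 8 Ugt2 genes and Ugt3a2, by 1.36-fold to 3.55-fold. Gstm3 and Sult1a1, the main phenol sulfotransferase, were the 2 that rose. The tests were limma contrasts with Benjamini-Hochberg adjustment over all 12085 genes and an adjusted p under 0.05. The members called made up 43.6% of those tested, against 46.7% of all genes, so the count as a whole is near the background. The share lower was 38.5%, against 26% of all genes, and the share higher was 5.13%, against 20.7%. The median log2 change was -0.43 over the members and -0.13 over all genes. The 2 groups did not overlap for 14 members, against 48.2% of all genes.

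Markers of other cells were measured beside this response. Of 28 tested markers of other liver and blood cells, 5 fell in WT liver (Cd5l, Kdr, Stab2, Col3a1 and Reln) and none rose. Of all genes, 26% fell and 20.7% rose there, so these falls are not more frequent than among all genes. The summed Kupffer markers, all 6 above threshold, read 2888 to 8674 in WT tunicamycin and 5004 to 14622 in WT control livers. Summed endothelial markers, again all 6, read 3338 to 5156 and 3769 to 5951, and the stellate markers, 5 of 6 above threshold, 6223 to 8930 and 7809 to 10917 in those groups. Among zone markers of the lobule, 3 of 6 pericentral genes and 2 of 4 periportal genes also fell in WT liver, with sums of 46687 to 50197 against 53565 to 58144 for the pericentral and 29075 to 41071 against 42366 to 48731 for the periportal genes. In bulk tissue, fewer cells of a type and less RNA per cell cannot be told apart, and the part of these shifts in the members' changes was not tested.

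**Figure D1:**
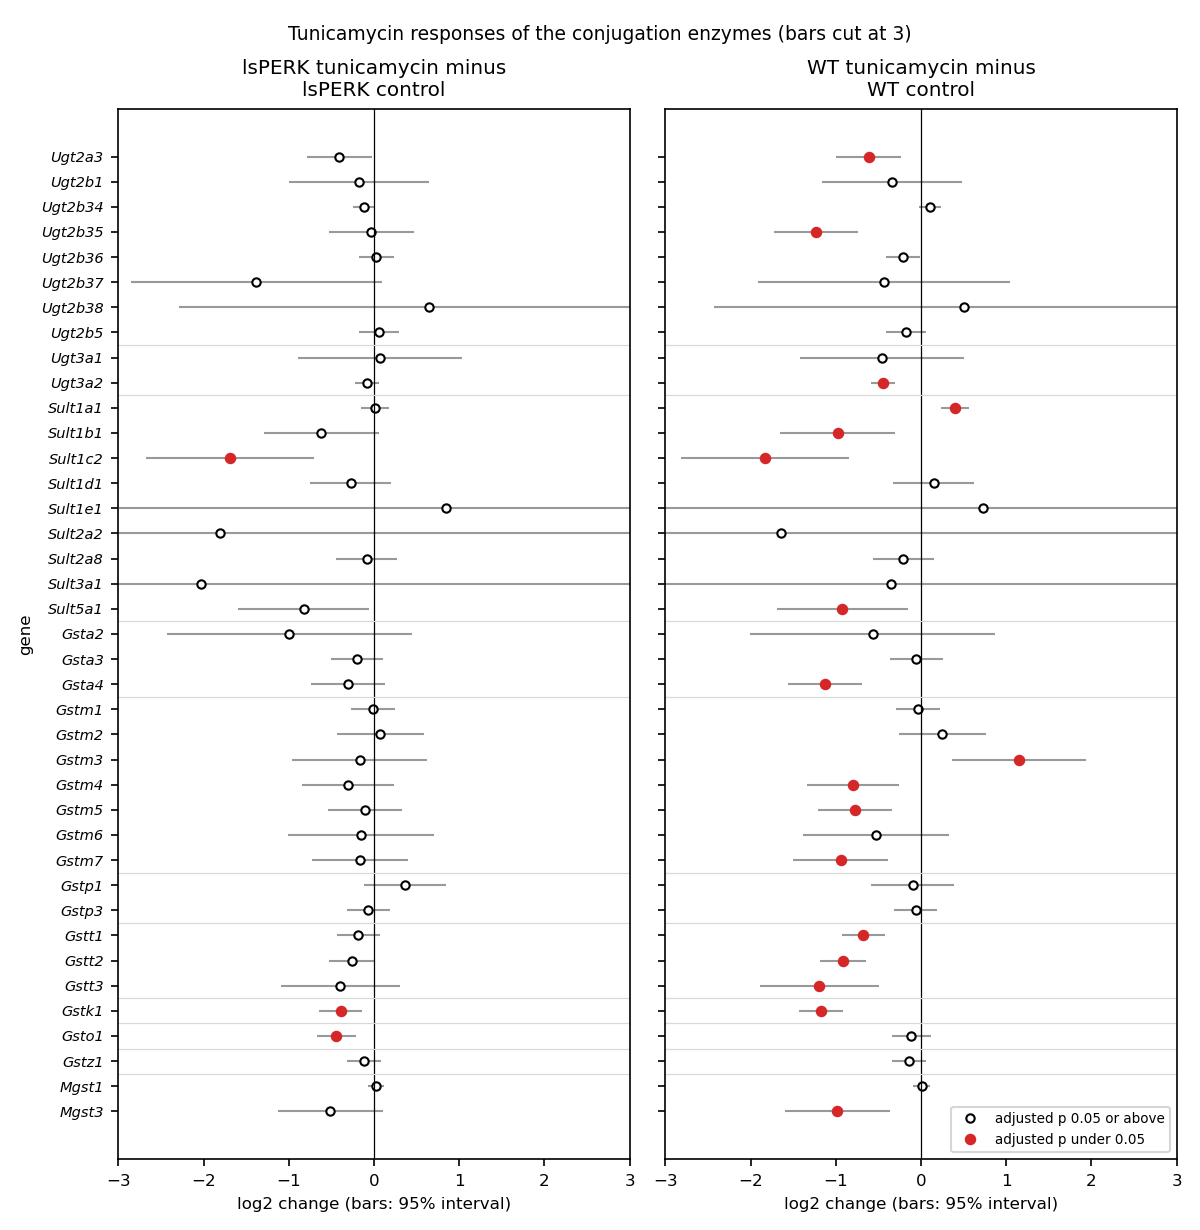
Log2 change of each tested member (rows, grouped by family) after tunicamycin in lsPERK livers (left, 4 against 3 arrays) and in WT livers (right, 4 against 3 arrays). Points are limma estimates, bars are 95% intervals drawn up to an absolute value of 3, and filled points have an adjusted p under 0.05: 3 on the left and 17 on the right.

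Among the glutathione S-transferases of cytosol and organelles, Gstk1 had the smallest adjusted p of the WT response. Gstk1, the kappa-class enzyme of mitochondria and peroxisomes, read, in the order of the labels' replicate numbers, 5941, 5196, 5073 and 4635 in lsPERK tunicamycin, 7394, 6343 and 6755 in lsPERK control, 2524, 2414, 3397 and 2985 in WT tunicamycin, and 6169.7, 6542 and 6262 in WT control livers. The WT tunicamycin arrays all lay below all other arrays, and the lsPERK tunicamycin arrays lay below their controls. The log2 change was -1.17 ± 0.12 (SE) in WT liver (adjusted p = 2.31e-06, limma) and -0.39 ± 0.12 in lsPERK liver (adjusted p = 0.0326). The response in lsPERK liver was thus smaller, by a log2 difference of 0.78 ± 0.16 (adjusted p = 0.00462). The lsPERK call is close to the threshold, and 11 of the alternative settings end it, with adjusted p of 0.0536 to 0.348.

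Gsta4, the alpha-class enzyme that conjugates the lipid peroxidation product 4-hydroxynonenal, gave 3307, 2712, 3694 and 2737 in lsPERK tunicamycin, 3718, 3933 and 3792 in lsPERK control, 1664, 1651, 2909 and 2746 in WT tunicamycin, and 4124, 5154 and 4965 in WT control livers. All WT tunicamycin arrays lay below all WT control arrays, and the lsPERK tunicamycin arrays overlapped the WT tunicamycin range. Gsta4 fell by 1.13 ± 0.19 on the log2 scale in WT liver (adjusted p = 0.000292), while its change in lsPERK liver was -0.31 ± 0.19 (adjusted p = 0.333). The difference of 0.82 ± 0.27 had an adjusted p of 0.0488, and without any 1 of 11 single arrays, all but WT tunicamycin replicates 3 and 4 and WT control replicate 1, that p was 0.0514 to 0.102. Gsta3, with the highest mean signal of the alpha class, read 13353, 11052, 14544 and 13682 in lsPERK tunicamycin, 16235, 14544 and 14447 in lsPERK control, 14102, 10538, 15276 and 14726 in WT tunicamycin, and 11675, 16499 and 14328 in WT control livers. Its groups overlapped under each comparison. Gsta2 and Gsta3 did not pass the test in either response.

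All 3 tested theta-class genes, whose enzymes act on halogenated and other small electrophiles, fell in WT liver. Gstt3 had 2702, 2109, 1433 and 1078 in lsPERK tunicamycin, 2711, 2686 and 1597 in lsPERK control, 391, 598, 622 and 654 in WT tunicamycin, and 1608, 1459 and 873 in WT control livers. Every WT tunicamycin array lay below every other array, and the lsPERK arrays with the highest values were those with high Xist signal, which is taken up further on. The log2 change of Gstt3 was -1.19 ± 0.31 in WT liver (adjusted p = 0.00647) and -0.40 ± 0.31 in lsPERK liver (adjusted p = 0.458), and the difference of 0.80 ± 0.44 did not pass (adjusted p = 0.241). On the deposited values the WT change of Gstt3 was -0.63 and did not pass (adjusted p = 0.211).

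Gstt1, the member of that class with the highest mean signal, read 7591, 7207, 6071 and 6226 in lsPERK tunicamycin, 8105, 7608 and 7280.3 in lsPERK control, 4361, 4019, 5318 and 5674 in WT tunicamycin, and 7818, 7531 and 7649.7 in WT control livers. WT tunicamycin arrays lay below all other arrays. The change was -0.68 ± 0.11 in WT liver (adjusted p = 0.000258), and -0.18 ± 0.11 in lsPERK liver (adjusted p = 0.326). Gstt2 fell by 0.92 ± 0.12 in WT liver (adjusted p = 3.09e-05), with a change of -0.26 ± 0.12 in lsPERK liver (adjusted p = 0.178). For both genes the 2 responses differed, by 0.49 ± 0.16 for Gstt1 (adjusted p = 0.0459) and 0.66 ± 0.17 for Gstt2 (adjusted p = 0.0155). The call of that difference for Gstt1 was kept in only 4 of 14 fits with 1 array left out, those without WT tunicamycin replicate 3 or 4 or lsPERK tunicamycin replicate 3 or 4, and in the other 10 its adjusted p was 0.0519 to 0.0946. It was also lost in 6 of 12 other settings (adjusted p = 0.0713 to 0.448), the replicate block among them.

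The mu-class genes of chromosome 3 split in WT liver. Gstm4 (-0.80), Gstm5 (-0.78) and Gstm7 (-0.94) fell on the log2 scale, Gstm3 rose, and Gstm1, Gstm2 and Gstm6 did not pass the test, at changes of -0.03, 0.25 and -0.53. The fall of Gstm4 did not pass without WT control replicate 2 or 3 (adjusted p = 0.0572 to 0.0628). On values as deposited and with arrays centred on their medians, the falls of Gstm4, Gstm5 and Gstm7 did not pass. The limma adjusted p was then 0.116 to 0.458 for Gstm4, 0.0714 to 0.604 for Gstm5 and 0.0524 to 0.187 for Gstm7. Gstm3 stood at 3587, 1557, 3159 and 2106 in lsPERK tunicamycin, 2619.5, 1825 and 4471 in lsPERK control, 7848, 3881, 8169 and 8433 in WT tunicamycin, and 2305, 3369.7 and 3664 in WT control livers. In WT tunicamycin livers 3 arrays were high, and replicate 2, the only array of that group with high Xist signal, was lower yet above all WT controls. The rise was 1.15 ± 0.35 on the log2 scale (2.22-fold, adjusted p = 0.0159), and the second probe set of Gstm3 gave 1.54. Without WT control replicate 1 it was 0.95 and did not pass (adjusted p = 0.0743). In lsPERK liver the change was -0.17 ± 0.35 (adjusted p = 0.817), and the difference between the responses, -1.32 ± 0.50, did not pass (adjusted p = 0.0821).

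Gstm1, with the highest mean signal in its class, read 12598, 10793, 13569.5 and 14056 in lsPERK tunicamycin, 12348, 11397 and 14880.5 in lsPERK control, 13734, 11808, 14969 and 14655 in WT tunicamycin, and 12687, 14408 and 15204 in WT control livers. These groups overlapped throughout, and no comparison of groups called the gene. Gstm5 and Gstm7, both with an antioxidant response element core before a start, had changes of -0.10 and -0.17 in lsPERK liver, neither of which passed. The difference of responses was 0.67 ± 0.27 for Gstm5 (adjusted p = 0.106) and 0.78 ± 0.36 for Gstm7 (adjusted p = 0.15).

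No tested pi-, omega- or zeta-class gene passed the test in WT liver. Gstp1, a pi-class enzyme, read 13965, 12277, 18138 and 15627 in lsPERK tunicamycin, 9339, 10330.3 and 16004 in lsPERK control, 15419, 10381, 17256 and 15309.7 in WT tunicamycin, and 11525, 18078 and 17306 in WT control livers. Its lowest arrays in each group were those with high Xist signal. Gstz1, which is also the maleylacetoacetate isomerase of tyrosine breakdown, gave 7993, 7374, 8149 and 8204 in lsPERK tunicamycin, 8929.7, 7935 and 8989 in lsPERK control, 7499, 7195, 9114 and 8051 in WT tunicamycin, and 7981, 9687 and 8680.1 in WT control livers. All 4 groups overlapped. Gsto1, an omega-class enzyme with thiol transferase activity, had 3048, 3589, 3247 and 2649 in lsPERK tunicamycin, 4638, 4401 and 3726 in lsPERK control, 3992, 3851, 4379 and 4162 in WT tunicamycin, and 4633, 4237 and 4427 in WT control livers. Here the lsPERK tunicamycin arrays were the lowest group and overlapped no other. Gsto1 fell by 0.44 ± 0.10 in lsPERK liver (adjusted p = 0.0102), against a change of -0.11 ± 0.10 in WT liver (adjusted p = 0.393). The difference, -0.33, did not pass (adjusted p = 0.139), and a second, dimmer probe set of Gsto1 was not called in lsPERK liver (-0.37, adjusted p = 0.343).

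Of the membrane-bound enzymes, Mgst3 fell in WT liver by 0.98 ± 0.28 (adjusted p = 0.00935), and its change in lsPERK liver was -0.51 ± 0.28 (adjusted p = 0.247). Without WT control replicate 1 the fall did not pass (adjusted p = 0.0565). Mgst1, which reduces lipid hydroperoxides in the endoplasmic reticulum and mitochondria, read 19842, 19842, 18939.8 and 18939.8 in lsPERK tunicamycin, 18802, 19457 and 19049 in lsPERK control, 19309.5, 19309.5, 19049 and 18743 in WT tunicamycin, and 19842, 18743 and 18505 in WT control livers. The groups overlapped, and the 95% interval of the difference between the responses was -0.12 to 0.15 on the log2 scale. These levels are near the top of the measured range.

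**Figure D2:**
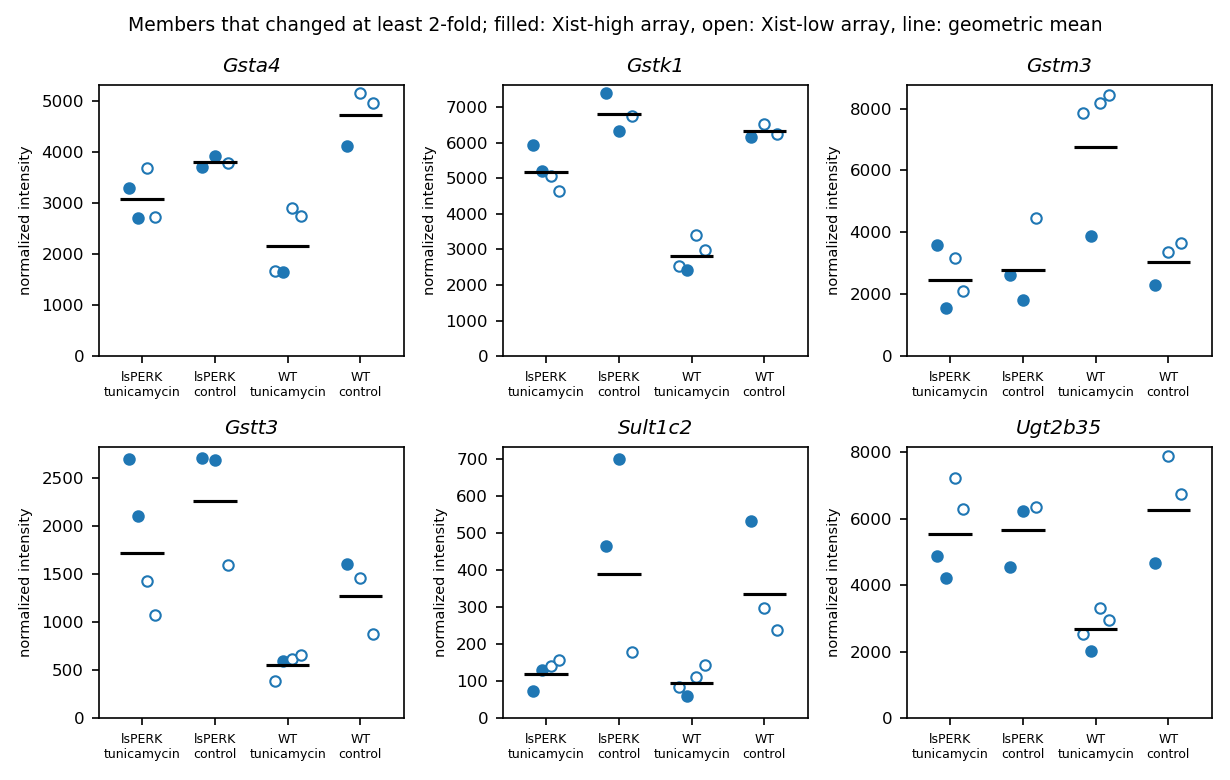
Normalized intensity (linear axis from 0) of the 6 members called with at least a 2-fold change in a comparison, with groups in the order lsPERK tunicamycin, lsPERK control, WT tunicamycin and WT control. Each point is an array, filled for high and open for low Xist signal, and lines are geometric means. The WT tunicamycin arrays of Gstk1 (2414 to 3397) and Gstt3 (391 to 654) lie below those of every other group.

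Among the sulfotransferases, Sult1c2, which acts on small phenols, fell in both genotypes. It read 72.6, 131, 142 and 157 in lsPERK tunicamycin, 466, 701 and 179 in lsPERK control, 83.8, 59.5, 111 and 143 in WT tunicamycin, and 532, 298 and 239 in WT control livers. The tunicamycin arrays lay below the controls in both genotypes. The log2 change was -1.69 ± 0.44 in lsPERK liver (3.22-fold, adjusted p = 0.0193) and -1.83 ± 0.44 in WT liver (3.55-fold, adjusted p = 0.00376). The 95% interval of the difference of responses was wide, -1.25 to 1.54. The lsPERK change rested on few arrays: on those with low Xist signal alone, where a single control is assumed to vary like the other groups, it was -0.27 (adjusted p = 0.724), and without lsPERK control replicate 1 or 2 or lsPERK tunicamycin replicate 1 it did not pass (adjusted p = 0.0556 to 0.112).

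Sult1a1 rose in WT liver. It gave 15014, 13988, 13041 and 14425 in lsPERK tunicamycin, 14880.5, 14586 and 12566 in lsPERK control, 14969, 15689.6, 14629.6 and 15204 in WT tunicamycin, and 12277, 11648 and 10527 in WT control livers. WT control arrays were the lowest, and the other 3 groups overlapped each other. The rise was 0.40 ± 0.07 in WT liver (1.32-fold, adjusted p = 0.000472), the change in lsPERK liver was 0.01 ± 0.07 (adjusted p = 0.938), and the responses differed by -0.39 ± 0.10 (adjusted p = 0.0177). Without WT control replicate 3 that difference did not pass (adjusted p = 0.0508). It was also lost in 4 of 12 other settings, among them values as deposited, arrays centred on their medians and no variance trend. Across all settings its estimate ran from -0.51 to -0.10. The WT rise was lost with arrays centred on their medians (adjusted p = 0.154). The control groups did not overlap either, with a log2 difference of 0.29 for lsPERK control minus WT control that did not pass (adjusted p = 0.992).

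Sult1b1, which sulfates thyroid hormones, fell in WT liver by 0.98 ± 0.30 (adjusted p = 0.0163), and Sult5a1, a mouse sulfotransferase, by 0.93 ± 0.34 (adjusted p = 0.0403). Their changes in lsPERK liver were -0.62 and -0.83 and did not pass. The WT call of Sult5a1 was lost in 8 of 13 other settings (adjusted p = 0.0533 to 0.516), and without WT tunicamycin replicate 2 or 4, WT control replicate 1 or 2, lsPERK tunicamycin replicate 4 or lsPERK control replicate 2 (adjusted p = 0.0504 to 0.165). That of Sult1b1 was lost without WT control replicate 2 or 3 (adjusted p = 0.0628 to 0.069). The 2 kept probe sets of Sult1d1, a mouse enzyme that sulfates catecholamines, disagreed: the dimmer one was lower in WT liver (-0.70, adjusted p = 0.0291, fitted over all kept probe sets) and the brighter one changed by 0.15 (adjusted p = 0.611).

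The Ugt genes that changed in WT liver were Ugt2b35, Ugt2a3 and Ugt3a2. Ugt2b35, from the family that glucuronidates steroids, bile acids and drugs, read 4879.7, 4222, 7237 and 6299 in lsPERK tunicamycin, 4557, 6246 and 6343 in lsPERK control, 2549, 2039, 3333 and 2945 in WT tunicamycin, and 4660.0, 7877 and 6742 in WT control livers. The WT tunicamycin arrays lay below every other array. Ugt2b35 fell by 1.23 ± 0.22 in WT liver (adjusted p = 0.000428), against a change of -0.03 ± 0.22 in lsPERK liver (adjusted p = 0.953). The difference of 1.20 ± 0.31 had an adjusted p of 0.016, and on the deposited values it did not pass (adjusted p = 0.0729). On the arrays with low Xist signal, which hold 1 lsPERK control, the difference was 1.41.

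Ugt3a2, whose human relative uses UDP-glucose and UDP-xylose, gave 6983, 7330.2, 7627 and 7313 in lsPERK tunicamycin, 8294, 7402 and 7481 in lsPERK control, 6169.7, 5855, 6208 and 6017 in WT tunicamycin, and 8440.3, 7731 and 8554 in WT control livers. Its WT tunicamycin arrays lay below all WT control arrays and all lsPERK tunicamycin arrays. The fall in WT liver was 0.44 ± 0.06 (adjusted p = 6.18e-05), the change in lsPERK liver was -0.08 ± 0.06 (adjusted p = 0.466), and the difference was 0.36 ± 0.09 (adjusted p = 0.0113). Ugt2a3 fell by 0.61 ± 0.17 in WT liver (adjusted p = 0.00912), with a change of -0.41 in lsPERK liver that did not pass. Ugt2b5, with the highest mean signal of its family, read 13328, 13123, 14789 and 15348 in lsPERK tunicamycin, 13510.3, 13289 and 13825 in lsPERK control, 13682, 9756, 13061 and 13811 in WT tunicamycin, and 13466, 14586 and 14199 in WT control livers. It was not called in either response, and its WT tunicamycin replicate 2 stood below all other arrays. The second probe set of Ugt2b34 was higher in WT liver (0.36, adjusted p = 0.000732) and lower in lsPERK liver (-0.25, adjusted p = 0.0268), whereas the brighter one passed in neither (0.10 and -0.12). In the same fit of all kept probe sets, that second probe set was also lower in lsPERK tunicamycin than in WT tunicamycin livers (-0.37, adjusted p = 0.000445), and the responses differed by -0.60 (adjusted p = 0.000985), against -0.23 for the brighter one (adjusted p = 0.087).

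In lsPERK liver as a whole, tunicamycin lowered 3 of the 39 members, Sult1c2, Gsto1 and Gstk1, and raised none. That is 7.69% of the members, against 15.7% of all genes, of which 8.42% rose and 7.27% fell. Of the 39 tested members, 1 was called with at least a 2-fold change (Sult1c2), against 4.07% of all genes in either direction. The median log2 change was -0.17 over the members and -0.02 over all genes. Groups did not overlap for 9 members, against 27.2% of all genes. Arrays of the same replicate number deviated together within the lsPERK groups, and with the replicate number as a block in a fit of the lsPERK arrays, 5 members were lower, against 5.26% of all genes lower and 11.2% called in either direction in that fit: Gstk1 and Sult1c2 stayed, Gsto1 was lost, and Gsta2, Sult1b1 and Ugt2b37 were added. The same-numbered lsPERK arrays also share their Xist state, and differently numbered Xist-high arrays deviated together too (r = 0.23 and 0.19). The block is therefore not separate from the Xist state. Of the 28 markers of other cells, Sox9 was called higher in lsPERK liver, at least 1.64-fold, and its part in the members' values was not tested.

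The genotypes were compared under tunicamycin in the same fit, which shares the WT tunicamycin arrays with the WT response. In lsPERK tunicamycin livers 9 members were higher than in WT tunicamycin livers (Gsta4, Gstk1, Gstm5, Gstm7, Gstt1, Gstt2, Gstt3, Ugt2b35 and Ugt3a2) and 2 were lower (Gstm3 and Gsto1). They made up 28.2% of the members, against 35.3% of all genes. The share higher was 23.1%, against 18.5% of all genes, and the share lower 5.13%, against 16.8%. Of the 39 tested members, 3 were called with a difference of at least 2-fold (Gstt3, Ugt2b35 and Gstm3), against 8.7% of all genes. Gstt3 was 3.10-fold higher (log2 1.63 ± 0.29, adjusted p = 0.000613), Ugt2b35 2.07-fold higher (1.05 ± 0.21, adjusted p = 0.00121) and Gstk1 1.85-fold higher (0.89 ± 0.11, adjusted p = 2.59e-05). Gstm3 was 2.74-fold lower (-1.45 ± 0.33, adjusted p = 0.00326). Groups did not overlap for 9 members, against 36.3% of all genes. No sulfotransferase was called in this comparison by its brightest probe set, while the dimmer probe set of Sult1d1 was higher (0.91, adjusted p = 0.00603, fitted over all kept probe sets). The call of Gstm7 (adjusted p = 0.048) was kept in 4 of 14 fits with 1 array left out, those without WT tunicamycin replicate 3 or 4, WT control replicate 1 or lsPERK tunicamycin replicate 2, and its adjusted p was 0.0514 to 0.131 in the other 10. It was also lost in 6 of 13 other settings (adjusted p = 0.0627 to 0.216). The call of Gsta4 (0.51, adjusted p = 0.0383) was lost without WT tunicamycin replicate 1 or 2 or lsPERK tunicamycin replicate 1 or 3 and in 7 other settings (adjusted p = 0.0517 to 0.263). That of Gstm5 was lost without WT tunicamycin replicate 4 or lsPERK tunicamycin replicate 1 (adjusted p = 0.051 to 0.0535). It was also lost on values as deposited and with arrays centred on their medians (adjusted p = 0.0908 to 0.337). The second, dimmer probe set of Gsto1 was not called (-0.31, adjusted p = 0.315, fitted over all kept probe sets). With the mean of its kept probe sets the call of Gsto1 was lost (adjusted p = 0.0749).

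Markers were measured beside this comparison too. Of the 28 markers of other cells, the stellate gene Reln was called higher (0.57, adjusted p = 0.00286) and none lower. Of all genes, 18.5% were higher and 16.8% lower. Among zone markers, the periportal genes Hal (1.85) and Pck1 (0.67) and the pericentral gene Cyp2e1 (0.16) were higher. The summed periportal markers read 42766 to 46371 in lsPERK tunicamycin and 29075 to 41071 in WT tunicamycin livers, the pericentral ones 48401 to 54371 and 46687 to 50197, and the stellate ones 8034 to 10280.1 and 6223 to 8930. In the difference of responses Reln (0.68) and Hal (1.52) were called above 0, as were 10.2% of all genes. The part of these shifts in the members' values was not tested.

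Between the control groups, limma called 0 of the 39 members in lsPERK against WT liver, and 0% of all genes. The deleted gene itself, Eif2ak3, was not called either (log2 -1.27 ± 0.21, adjusted p = 0.309), although its control groups did not overlap. The 0 calls therefore do not show that the control groups were alike. At an unadjusted p under 0.05, 5 members differed, against 4.24% of all genes: Gstt3, Sult1a1, Sult1d1, Ugt2b34 and Ugt2b37. The control groups did not overlap for 3 members, Gsta4, Sult1a1 and Ugt2b34, against 7.39% of all genes. Of the control arrays, 2 of 3 in lsPERK and 1 of 3 in WT had high Xist signal.

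The responses of the genotypes differed for 7 members, 17.9% against 19.9% of all genes. The lsPERK response lay above the WT response for Gsta4, Gstk1, Gstt1, Gstt2, Ugt2b35 and Ugt3a2, all of which fell in WT liver, and below it for Sult1a1, which rose there. The share above was 15.4%, against 10.2% of all genes, and the share below 2.56%, against 9.67%. The difference was at least 2-fold for 1 member, Ugt2b35, against 8.08% of all genes. The median difference was 0.14 over the members and 0.08 over all genes. This test shares its arrays with the 2 responses and adds no independent sample. On the deposited values, with no further normalization, none of the 7 passed and Gstm3 did (1 member, below), and with each array centred on its median 4 passed, all above.

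**Figure D3:**
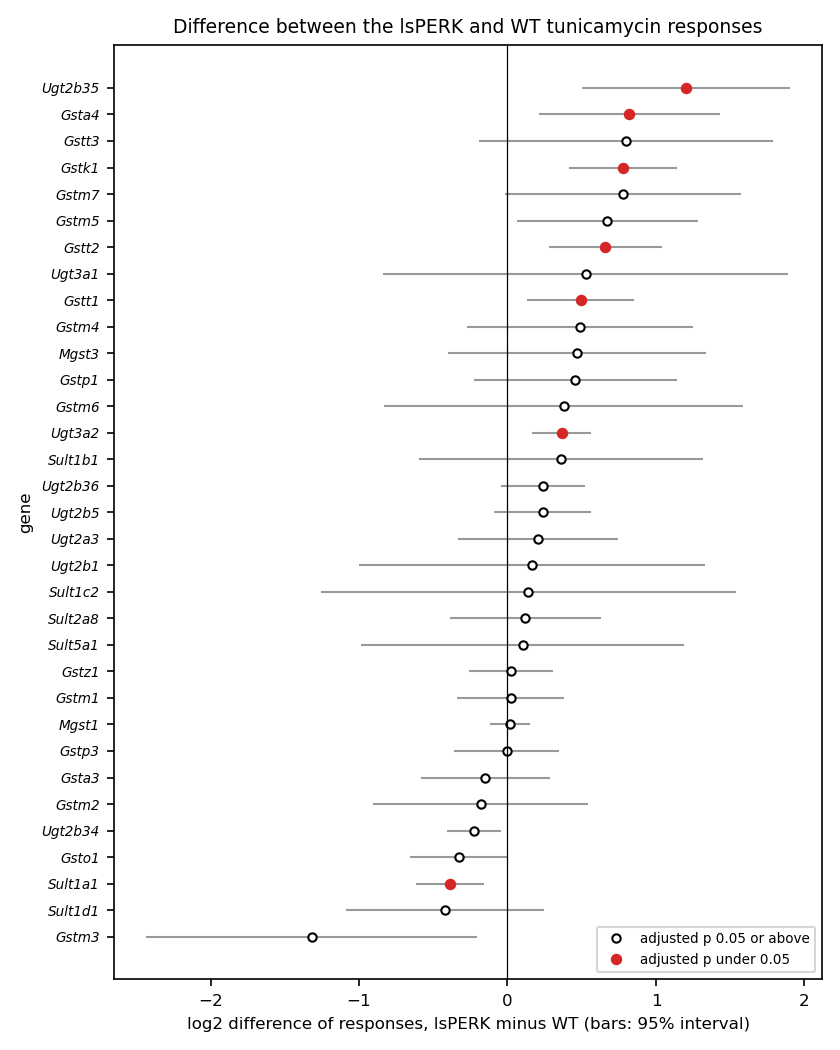
Difference between the lsPERK and the WT tunicamycin response (log2 change in lsPERK minus log2 change in WT) for the 33 members whose standard error was at most 0.7, ordered by value. Points are limma estimates, bars are 95% intervals, and filled points have an adjusted p under 0.05: 6 above 0, from Ugt3a2 (0.36) to Ugt2b35 (1.20), and Sult1a1 (-0.39) below 0.

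The arrays also fell into 2 kinds by Xist, the RNA of the inactive X chromosome. In the deposited values, 6 arrays had 7878 to 9297 units of Xist and 8 arrays had 23.4 to 61.2. High signal was found on 2 of 4 lsPERK tunicamycin, 2 of 3 lsPERK control, 1 of 4 WT tunicamycin and 1 of 3 WT control arrays, and the labels give no sex. With the Xist state as a term beside the 4 groups, 21 of the 39 members differed between Xist-high and Xist-low arrays, 7 higher and 14 lower. That is 53.8% of the members, against 10.9% of all genes. The share higher was 17.9%, against 6.34% of all genes, and the share lower 35.9%, against 4.58%. The 2 kinds of array did not overlap for 9 members, against 1.85% of all genes. Both counts include Sult2a2 and Sult3a1, above the filter threshold only on Xist-high arrays, and Ugt2b38, above it only on Xist-low arrays. These members passed the filter through that kind of array alone, so their place in the counts is not separate support for a split by Xist.

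Sult2a2, a hydroxysteroid and bile acid sulfotransferase, read 11129 to 15276 (median 13436) on the Xist-high arrays and 1.67 to 27.6 (median 13.8) on the Xist-low arrays, at least 317-fold higher with dim arrays raised to the filter threshold. Sult3a1, an amine sulfotransferase, showed the same split, with 15276 to 19201 (median 18370.4) on the Xist-high arrays and 1.04 to 23.7 (median 8.53) on the Xist-low arrays, at least 433-fold higher. Both genes were thus bright on all 6 Xist-high arrays in every group and under the filter threshold on all 8 others. Sult1e1, the estrogen sulfotransferase, had 101 to 407 (median 217) on the Xist-high arrays and 1.69 to 66.6 (median 22.7) on the Xist-low arrays (at least 4.60-fold higher, adjusted p = 0.00402). Ugt2b37 was higher as well, with 93.6 to 503 (median 184) on the Xist-high arrays and 43.3 to 76.1 (median 55.8) on the Xist-low arrays (log2 term 1.65 ± 0.21, adjusted p = 0.000256).

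Ugt2b38 ran the other way, with 21.7 to 38.3 (median 31.6) on the Xist-high arrays and 168 to 862 (median 353) on the Xist-low arrays, at least 8.44-fold lower (adjusted p = 4.3e-05). Gsta2, an alpha-class glutathione S-transferase, was lower at 737 to 2972 (median 1847) on the Xist-high arrays and 3095 to 9666 (median 5524) on the Xist-low arrays (log2 term -1.64 ± 0.19, adjusted p = 0.000114). Gstp1 was lower in a narrower range, with 9339 to 13965 (median 10953) on the Xist-high arrays and 15309.7 to 18138 (median 16630.2) on the Xist-low arrays (-0.55 ± 0.06, adjusted p = 8.26e-05). Sult2a8, a mouse bile acid sulfotransferase, read 8358 to 12348 (median 11103) on the Xist-high arrays and 12437 to 14789 (median 13461) on the Xist-low arrays (-0.39 ± 0.06, adjusted p = 0.00084), and Gstm1 10793 to 12687 (median 12078) on the Xist-high arrays and 13569.5 to 15204 (median 14531) on the Xist-low arrays (-0.27 ± 0.04, adjusted p = 0.00194). These 9 members did not overlap between the 2 kinds of array.

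By family, the Xist term called 6 of 9 sulfotransferases, 5 of 8 Ugt2, 5 of 7 mu-class, 2 of 3 alpha-class, 1 of 2 pi-class, 1 of 3 theta-class and 1 of 2 Mgst members, and neither Ugt3 member nor Gstk1, Gsto1 or Gstz1. All 5 mu-class calls were lower on Xist-high arrays. Ugt2b1, which overlapped slightly, was lower at 4508 to 9893 (median 7491) on the Xist-high arrays and 9828 to 14695 (median 12636) on the Xist-low arrays (-0.94 ± 0.11, adjusted p = 0.000107). Further calls were Mgst3 (0.66), Gstt3 (0.61) and Sult1d1 (0.47) higher, and Gstm6 (-0.90), Sult1b1 (-0.66), Gstm3 (-0.66), Gstm7 (-0.54), Ugt2b35 (-0.51), Gstm4 (-0.49), Gsta3 (-0.25) and Ugt2b5 (-0.21) lower, as log2 terms.

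**Figure D4:**
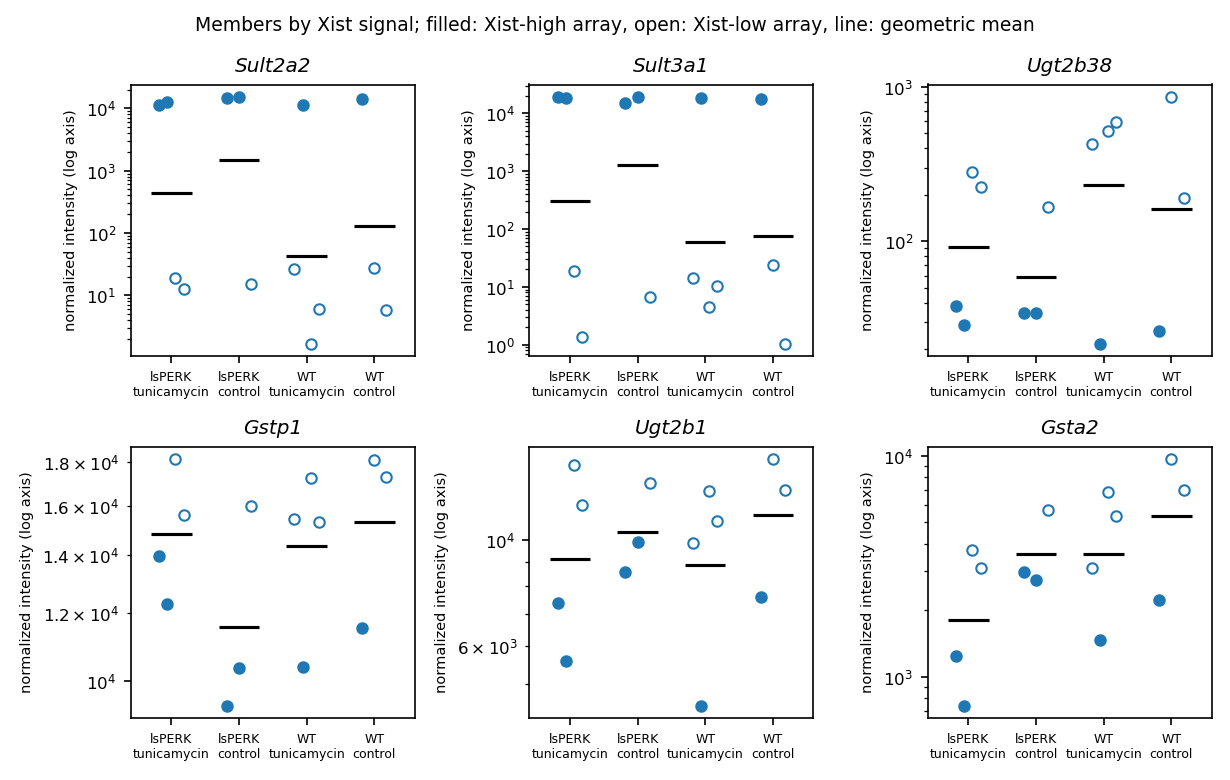
Normalized intensity (log axis) of 6 members with a called Xist term, with groups in the order lsPERK tunicamycin, lsPERK control, WT tunicamycin and WT control. Filled points are Xist-high arrays, open points Xist-low arrays, and lines are geometric means. Sult2a2 and Sult3a1 lie at 11129 or more on the 6 Xist-high arrays and at 27.6 or less on the other 8, and Ugt2b38 is lower on every Xist-high array.

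Because the Xist-high arrays are spread unequally over the groups, the comparisons were also fitted with the Xist state as a covariate. Every member called without it was called with it. The WT response then held 23 members (2 higher, 21 lower; 51.5% of all genes), adding Gsta2, Gstm6, Sult2a8, Ugt2b1, Ugt2b36 and Ugt2b5 as lower. The lsPERK response held 8 (7 lower, 1 higher; 19.7% of all genes), adding Gsta2 (-1.27, adjusted p = 0.00369), Ugt2b37 (-1.10, adjusted p = 0.0154), Sult1b1 (-0.73) and Ugt2a3 (-0.45) as lower and Gstp1 (0.27, adjusted p = 0.0382) as higher. The comparison under tunicamycin held 14 (38.8% of all genes), adding Gstm4, Mgst3 and Ugt2b5 as higher. The control comparison held 0 (0.00827% of all genes), and the difference of responses 11 (24.1% of all genes), adding Gstm3 (-1.37, adjusted p = 0.016), Gstm5 (0.70, adjusted p = 0.0256), Gstm7 (0.73, adjusted p = 0.0307) and Gstp1 (0.41, adjusted p = 0.0218).

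Of 55 genes that work beside the members, chosen with earlier results of these data known, 51 were tested. In lsPERK liver 2 rose and 7 fell (median -0.14), 17.6% called against 15.7% of all genes. In WT liver 7 rose and 20 fell (median -0.46), 52.9% called against 46.7% of all genes. The share higher in WT liver was 13.7%, against 20.7% of all genes, and the share lower 39.2%, against 26%. The difference of responses was called for 9 genes above and 5 below 0 (27.5%, against 19.9% of all genes). Where more than 4 genes of a group are named, the choice was made after their values were seen. For cofactor supply, Papss1, a PAPS synthase, rose in both genotypes (1.43 ± 0.33 in lsPERK liver and 1.73 ± 0.33 in WT liver, adjusted p = 0.00884 and 0.000627). Its paralog Papss2 fell in both (-0.69 and -0.75), as did Slc35b2, which carries PAPS into the Golgi (-0.82 and -0.67), and Gclm, the modifier subunit of glutathione synthesis (-0.47 and -0.51). Gsr, the glutathione reductase, and Ugdh, which makes UDP-glucuronic acid, fell in WT liver (-0.65 and -0.77). Of the 13 tested genes of cofactor supply, 2 rose and 5 fell in WT liver. Their difference of responses was called above 0 for 2 and below 0 for none.

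The exporters of conjugates Abcc3 and Abcc6 fell in WT liver (-1.46 and -1.29), and their lsPERK responses differed by 1.32 (adjusted p = 0.00227) and 0.84 (adjusted p = 0.0258). Gusb and Arsb, lysosomal hydrolases of glucuronides and sulfates, fell as well in WT liver (-1.26 and -1.09), with differences of 0.81 and 1.09. Among other conjugating enzymes, the N-acetyltransferase Nat1 and the histamine methyltransferase Hnmt fell in WT liver (-1.55 and -1.25), Ephx1, the microsomal epoxide hydrolase, fell by 0.46 there, and Nnmt, which methylates nicotinamide, rose by 2.30 with a difference of -3.43. Ephx1 had a difference of 0.70 (adjusted p = 0.0172), and Nat2, another N-acetyltransferase, one of -0.49 (adjusted p = 0.049).

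Of the regulators, 6 of 12 tested fell in WT liver and 2 rose. Nr1i3, which encodes the xenobiotic receptor CAR, fell by 1.38 ± 0.13 (adjusted p = 1.51e-06) with a difference of 1.18 (adjusted p = 0.00072). Ppara, a fatty acid receptor, fell by 1.97 with a difference of 1.52 (adjusted p = 0.00733). The difference was below 0 for Cebpb, a transcription factor of the acute-phase response (-0.82, adjusted p = 0.0313), which rose by 0.62 in WT liver, and for Nr1h4, which encodes the bile acid receptor FXR (-0.83, adjusted p = 0.0105) and fell by 0.75 in lsPERK liver. Cebpa, a hepatocyte transcription factor, fell in both genotypes (-1.23 in lsPERK liver and -1.01 in WT liver). Nfe2l2, which encodes NRF2, rose by 0.40 in WT liver (adjusted p = 0.0192). Of 5 NRF2 targets outside the members, Hmox1 rose in WT liver (1.56), Srxn1 rose in both genotypes (0.83 in lsPERK liver and 1.30 in WT liver, adjusted p = 0.0476 and 0.00104), Nqo1 fell in both genotypes (-0.91 in lsPERK liver and -1.02 in WT liver), and the difference was called for Hmox1 (-2.58, adjusted p = 0.00378).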

How the data were processed

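Total RNA of 14 mouse liver samples was hybridised to Affymetrix arrays, 1 array per sample, after labelling of 100 ng by a 3′ in vitro transcription protocol, per the labels' protocols. The authors deposited 1 linear intensity per probe set and array, made with MAS5 and GCOS per the submitters' processing notes. No source used here names their versions, the scaling or a genome build, and gene names come from the platform annotation. Arrays have no read depth, and their number limits the precision.

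The 64 control probe sets were dropped from 45101. Because array medians differed by 0.63 on the log2 scale, over a limit of 0.5, log2 intensities were quantile normalized. Probe sets above the pooled median (41.5) on 3 or more arrays were kept, and each of 12085 genes was represented by its brightest kept probe set. A model with 1 mean for each of the 4 groups and 10 residual degrees of freedom was fitted by limma 3.58.1 (R 4.3.3, functions lmFit and eBayes with trend). The 5 two-sided contrasts were adjusted by Benjamini-Hochberg over all genes. Errors printed after ± are standard errors. "At least" folds raise dim arrays to the filter threshold. Xist-high arrays are those above the midpoint of the log2 range of Xist.

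Values in every array are given for members called with at least a 2-fold change and for the member of highest mean signal in each family. The members and gene lists were chosen with earlier results of these data known. All 46 gene identifiers matched the RefSeq table. In simulated data, 200 of 12085 genes were changed. For a log2 change of 1 the fit recovered 66% in lsPERK, 53% in WT and 42% in the difference test. For a change of 2 it recovered 92%, 87% and 85%, with 3.07%, 4.11% and 11.2% false calls. In the main fit a gene had the same standard error in both responses, so 66% against 53% is not read as a genotype difference. The real WT response called 46.7% of all genes, so these rates may not carry over. Same-numbered arrays deviated together in the lsPERK groups (r = 0.27, 0.24 and 0.35 for the 3 pairs) and not in WT (r = -0.25, -0.37 and 0.16). Differently numbered lsPERK pairs with high Xist signal on both arrays gave r = 0.23 and 0.19. Those of unlike Xist state gave -0.39 to -0.19. In WT the pair of Xist-high arrays, tunicamycin replicate 2 and control replicate 1, gave r = 0.54. Whether the lsPERK correlations follow the Xist state or the replicate number was not tested. The numbers are those of the labels' titles, which do not say what a number marks. Figures were drawn with Python 3.11.15 and matplotlib 3.10.9. Alternatives covered the normalization, filter, floor, variance model, arrays in the fit, Xist state and 3′ to 5′ ratio as covariates, replicate block, probe sets per gene, threshold and each array left out.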

Additional observations from a re-analysis of the deposited data

Results flagged for a closer look

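In 7 of 78 sets of 4 arrays of a tested member, 8.97%, 1 array stood far from the other 3, where chance gives about 1 in 20. All 7 were WT tunicamycin replicate 2, the only array of that group with high Xist signal. It read 3881 for Gstm3 (others 7848 to 8433), 8358 for Sult2a8 (others 12437 to 13304), 9256 for Ugt2b36 (others 11841 to 12411), 9756 for Ugt2b5 (others 13061 to 13811), 719 for Ugt3a1 (others 2784 to 3206) and 21.7 for Ugt2b38 (others 425 to 591), each the lowest. For Sult3a1 it was the highest, at 18401 against 4.56 to 14.2.

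For 7 members the tunicamycin responses of lsPERK and WT livers differed in the limma test of the difference itself (lsPERK minus WT, log2). The differences were 0.82 for Gsta4 (adjusted p = 0.0488), 0.78 for Gstk1 (adjusted p = 0.00462), 0.49 for Gstt1 (adjusted p = 0.0459), 0.66 for Gstt2 (adjusted p = 0.0155), -0.39 for Sult1a1 (adjusted p = 0.0177), 1.20 for Ugt2b35 (adjusted p = 0.016) and 0.36 for Ugt3a2 (adjusted p = 0.0113).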

How the results depend on the processing

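None of the 38 calls of a member in a comparison changed direction under the 28 settings run. Several settings could not change it, because they leave the log2 change as it is. These are the variance models, the fit of only the compared groups and the leaving out of an array outside the comparison. Counts of members called did move. In the WT response (17) they were 9 on values as deposited (3 higher, 6 lower, against 2 and 15), 11 with arrays centred on their medians and 6 with at least a 2-fold change (17% of all genes), and 14 to 18 with 1 array left out, the lowest without WT control replicate 1 or 2. The lsPERK response (3) gave 1 as deposited, 1 centred, 1 at 2-fold (4.07% of all genes), 8 with the Xist covariate, 5 with the replicate block within the lsPERK arrays, 1 on Xist-low arrays alone (Ugt3a1, higher), and 1 to 4 with an array left out, the lowest without lsPERK control replicate 1 or 2. The comparison under tunicamycin (11) gave 6 as deposited (4 higher, 2 lower, against 9 and 2), 3 at 2-fold (8.7% of all genes), and 8 to 12 with an array left out. The difference (7) gave 1 as deposited (0 higher, 1 lower, against 6 and 1), 4 centred (4 and 0), 4 without the variance trend, 11 with the Xist covariate, 3 on Xist-low arrays (Ugt2b35, Gstm3 and Ugt3a1), 1 at 2-fold (8.08% of all genes), and 4 to 7 with an array left out, the lowest without WT control replicate 3. The control comparison stayed at 0 throughout, also with an array left out (0 to 0). The cause of these moves was not tested.

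The replicate block over all arrays gave 17, 2, 11, 0 and 7 members in the WT, lsPERK, tunicamycin, control and difference tests. It replaced Sult5a1 by Gstm6 in the first, lost Gstk1 in the second and replaced Gstt1 by Gstm3 in the last. Deposited values shift the median of all genes, to 0.30 in the WT response and -0.42 in the difference, against -0.13 and 0.08 after normalization. The members' medians were then -0.08 and -0.09. For the 6 members called with at least a 2-fold change, 383 of 431 recomputed values kept direction and side of the threshold and 48 lost the call. Xist-low arrays alone and values as deposited were among the settings that ended the call of Gstk1 in the difference (adjusted p = 0.0821 and 0.193). The Xist-low setting and the lsPERK block setting were chosen after seeing the data. With 3 or 4 arrays a group and unknown detection calls, small changes of dim members were not detectable.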
